A study of Mus musculus with 12 samples.

Results

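The genes of the proteasome were followed in livers of mice on chow or on a diet used to bring on nonalcoholic steatohepatitis (NASH), in which a fatty liver becomes inflamed. Every symbol that starts with Psma to Psmg followed by a digit was taken from the count table, with pseudogenes left out, which gave 49 of 24983 genes. They comprise 7 genes of the alpha ring and 7 of the beta ring of the 20S core, 6 ATPases and 11 other subunits of the 19S cap, 7 assembly chaperones, 5 immunoproteasome genes and 3 further activators or inhibitors. The other 3 fit no such class. Psma8 encodes the alpha subunit typical of testis, Psme2b is a near copy of Psme2, and Psmc3ip matches the pattern but encodes a factor of meiotic recombination rather than a subunit. The 5 immunoproteasome genes (Psmb8, Psmb9, Psmb10, Psme1 and Psme2) are compared below with the constitutive ones.

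The proteasome is the barrel-shaped protease that degrades proteins tagged with ubiquitin. Its core encloses the active sites, which sit on Psmb5, Psmb6 and Psmb7, while the cap binds ubiquitin chains, unfolds the substrate and feeds it in. Interferon gamma induces Psmb8, Psmb9 and Psmb10, which take the places of Psmb5, Psmb6 and Psmb7 in newly built cores, together with Psme1 and Psme2, the subunits of the activator PA28. Immunoproteasomes favour peptides that fit MHC class I molecules, and leukocytes hold many of them.

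All mice were C57BL/6J, and each of the 4 groups had 3 mice, told apart by ear tag, with 1 liver library each. The chow group ate standard chow and the other groups ate the NASH diet, with saturated fat, trans fat, fructose and cholesterol and 40% of calories from fat, all for 24 weeks. Mice on the NASH diet carried a subcutaneous osmotic minipump that held polyethylene glycol alone (vehicle) or, dissolved in it, oleic acid (OA) or OA-NO2, which is oleic acid bearing a nitro group, each fatty acid at 5 mg/kg/day. The labels describe no pump in chow-fed mice, so diet and pump cannot be told apart, and they give neither the sex and age of the mice nor how long the pumps ran.

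Library totals ranged from 8462590 counts in chow replicate 1 to 20613777 in vehicle replicate 3, and Alb, the gene of the hepatocyte product albumin, took 7.91% to 9.50% of counts in chow and 4.06% to 8.03% elsewhere. The 49 genes together took 0.310% to 0.339% of counts in chow, 0.412% to 0.442% with vehicle, 0.373% to 0.403% with OA and 0.370% to 0.446% with OA-NO2. On that plain share chow lay below the other groups, but the scale matters here. Scaling factors from the trimmed mean of M values (TMM) averaged 0.803 ± 0.039 (SD, n = 3) over the chow libraries and 1.15 ± 0.022 (SD, n = 3) over the vehicle libraries. Without these factors the median log2 fold change of all 14469 tested genes moved to 0.51 (vehicle), 0.42 (OA) and 0.34 (OA-NO2) in the comparisons with chow. It moved to -0.18 in the comparison of OA-NO2 with vehicle and to -0.11 in that of OA-NO2 with OA. Levels below are CPM on the TMM scale, that is, counts after every library is brought to the same effective total. On that scale the order of chow and vehicle was reversed, with the 49 genes at 4016 to 4096 CPM in chow and 3588 to 3767 with vehicle. Their sums were 3460 to 3899 CPM with OA and 3478 to 4573 CPM with OA-NO2.

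RefSeq promoter windows were found for 41 of the 49 genes, and 5 are shown because they belong to the genes on which the comparisons turn. Psmb8 and Psmb5 are an immunoproteasome subunit and the constitutive subunit it replaces, Psme1 encodes a subunit of the interferon-induced activator, and Psmd8 and Psmd9 are the 2 genes that passed the test between vehicle and chow. Each window is 280 bases of the gene's own strand, 250 before the start and 30 from it (GRCm38.p6). They lie at chr17:34197945-34198224 on the plus strand (Psmb8), chr14:55578244-55578523 on plus (Psme1), chr14:54617966-54618245 on minus (Psmb5), chr7:29180644-29180923 on minus (Psmd8) and chr5:123227940-123228219 on plus (Psmd9). Capitals mark matches on either strand to the interferon-gamma activated site TTCNNNGAA (in Psmb8), the core of the interferon-stimulated response element, which is GAAA, 2 bases of any kind and GAAA again (in Psme1, and the first capitals of Psmd9), and the antioxidant response element core TGACNNNGC (in Psmb5, and the second capitals of Psmd9).
Psmb8: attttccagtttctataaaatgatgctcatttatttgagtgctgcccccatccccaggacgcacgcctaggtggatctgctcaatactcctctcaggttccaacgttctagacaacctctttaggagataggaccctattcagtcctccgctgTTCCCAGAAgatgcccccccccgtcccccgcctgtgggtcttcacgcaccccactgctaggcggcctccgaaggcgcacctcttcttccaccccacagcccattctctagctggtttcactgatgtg
Psme1: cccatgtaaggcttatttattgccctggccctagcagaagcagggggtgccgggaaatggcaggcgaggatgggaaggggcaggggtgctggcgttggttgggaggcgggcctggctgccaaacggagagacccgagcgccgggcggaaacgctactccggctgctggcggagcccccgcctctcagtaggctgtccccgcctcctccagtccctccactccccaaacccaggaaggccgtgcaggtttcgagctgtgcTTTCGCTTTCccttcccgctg
Psmb5: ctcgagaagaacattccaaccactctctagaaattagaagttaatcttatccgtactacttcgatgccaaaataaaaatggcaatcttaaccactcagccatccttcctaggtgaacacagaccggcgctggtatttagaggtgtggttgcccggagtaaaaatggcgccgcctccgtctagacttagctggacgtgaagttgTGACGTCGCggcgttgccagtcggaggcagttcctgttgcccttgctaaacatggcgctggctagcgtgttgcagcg
Psmd8: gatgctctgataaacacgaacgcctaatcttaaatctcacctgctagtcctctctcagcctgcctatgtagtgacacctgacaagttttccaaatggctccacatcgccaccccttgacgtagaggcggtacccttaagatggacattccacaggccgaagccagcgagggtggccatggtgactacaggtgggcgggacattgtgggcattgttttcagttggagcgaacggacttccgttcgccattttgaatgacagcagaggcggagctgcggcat
Psmd9: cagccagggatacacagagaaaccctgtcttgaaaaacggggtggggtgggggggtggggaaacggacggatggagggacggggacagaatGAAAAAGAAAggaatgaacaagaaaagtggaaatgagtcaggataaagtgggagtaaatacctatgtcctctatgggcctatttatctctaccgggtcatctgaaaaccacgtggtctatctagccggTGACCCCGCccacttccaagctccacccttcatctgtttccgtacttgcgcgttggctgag
The Psmb8 match begins 97 bases before the start, the Psmb5 match 47 bases before it, and the Psme1 match 9 bases after it on the opposite strand. In Psmd9 the matches begin 159 and 31 bases before the start and do not overlap each other. Psmd8 has none of these letters in its window. Among all 32851 windows in the table, 7.83% hold TTCNNNGAA, 3.28% hold the spaced GAAA pair and 11.5% hold TGACNNNGC. The 41 proteasome genes have 44 windows and were counted by gene, unlike the shares over all windows. TTCNNNGAA was found in 3 of the 41 genes (Psmb8, Psmd2 and Psmg1). The spaced GAAA pair was found in 5 (Psmb3, Psmd4, Psmd9, Psme1 and Psmg4) and TGACNNNGC in 6 (Psmb5, Psmb6, Psmc6, Psmd12, Psmd9 and Psme4). The CCAAT box, written CCAAT, was in 14 of the 41 genes and in 36.1% of all windows. A match describes the letters of the window and is not a binding site as such.

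Subunits of the core and cap were abundant in liver. Per kilobase of the principal transcript and averaged over the groups, the alpha ring genes had a median of 89.8 CPM, from 28.9 (Psma2) to 149 (Psma7). The low value of Psma2 depends on its annotated length of 2911 bases, against 1239 for Psma5. In CPM not divided by length, Psma2 averaged 91.2 and Psma5 73.4 in chow. The beta ring genes had a median of 84.8 CPM per kilobase, from 53.6 (Psmb7) to 137 (Psmb6). The ATPases had a median of 62.3 CPM per kilobase and the other cap subunits 45.2, with Psmd8 the highest of these at 124. Levels of assembly chaperones were lower, with a median of 9.20 CPM per kilobase and Psmd9, a chaperone of the ATPase ring, the highest at 18.3. Psma8 stood at 0.945 and Psmc3ip at 0.358 CPM per kilobase.

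The catalytic immunoproteasome genes were present in chow-fed liver at a fraction of the level of their partners. In chow, Psmb8 averaged 13.5 CPM per kilobase against 52.1 for Psmb5, Psmb9 16.8 against 147 for Psmb6, and Psmb10 23.7 against 62.7 for Psmb7. The activator genes were more abundant, with Psme1 at 84.0 and Psme2 at 63.1 CPM per kilobase in chow against 13.5 for Psme3, the gene of the nuclear PA28 gamma activator, which is not counted as part of the immunoproteasome.

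The immunoproteasome genes did not pass the test between NASH diet with vehicle and chow, while markers of leukocytes did. Psmb8 stood at 26.5, 18.7 and 20.9 CPM in the chow libraries, 25.95, 24.9 and 21.2 with vehicle, 19.4, 24.3 and 21.0 in the OA group, and 13.4, 37.9 and 20.4 in the OA-NO2 group. The chow and vehicle values overlapped, and both the lowest and the highest of the 12 were OA-NO2 libraries. Psmb9 stood at 23.1, 18.99 and 25.9 CPM in chow, 24.4, 23.7 and 22.6 with vehicle, 19.8, 25.0 and 19.8 in the OA group, and 12.0, 31.6 and 21.6 in the OA-NO2 group. Psmb10 stood at 39.9, 22.7 and 30.7 CPM in chow, 32.0, 30.1 and 28.6 with vehicle, 25.8, 30.1 and 28.1 in the OA group, and 18.8, 54.6 and 25.7 in the OA-NO2 group. For these genes too the vehicle libraries lay close together and within the range of chow.

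The PA28 subunits showed the same order of libraries within the OA-NO2 group. Psme1 stood at 102, 84.2 and 94.5 CPM in chow, 95.8, 105 and 96.95 with vehicle, 89.6, 98.1 and 88.1 in the OA group, and 71.9, 126 and 95.1 in the OA-NO2 group. Psme2 stood at 65.8, 60.5 and 55.9 CPM in chow, 56.4, 52.0 and 54.4 with vehicle, 50.4, 55.0 and 50.6 in the OA group, and 36.9, 80.8 and 56.4 in the OA-NO2 group. Chow and vehicle overlapped in both genes.

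**Figure D1:**
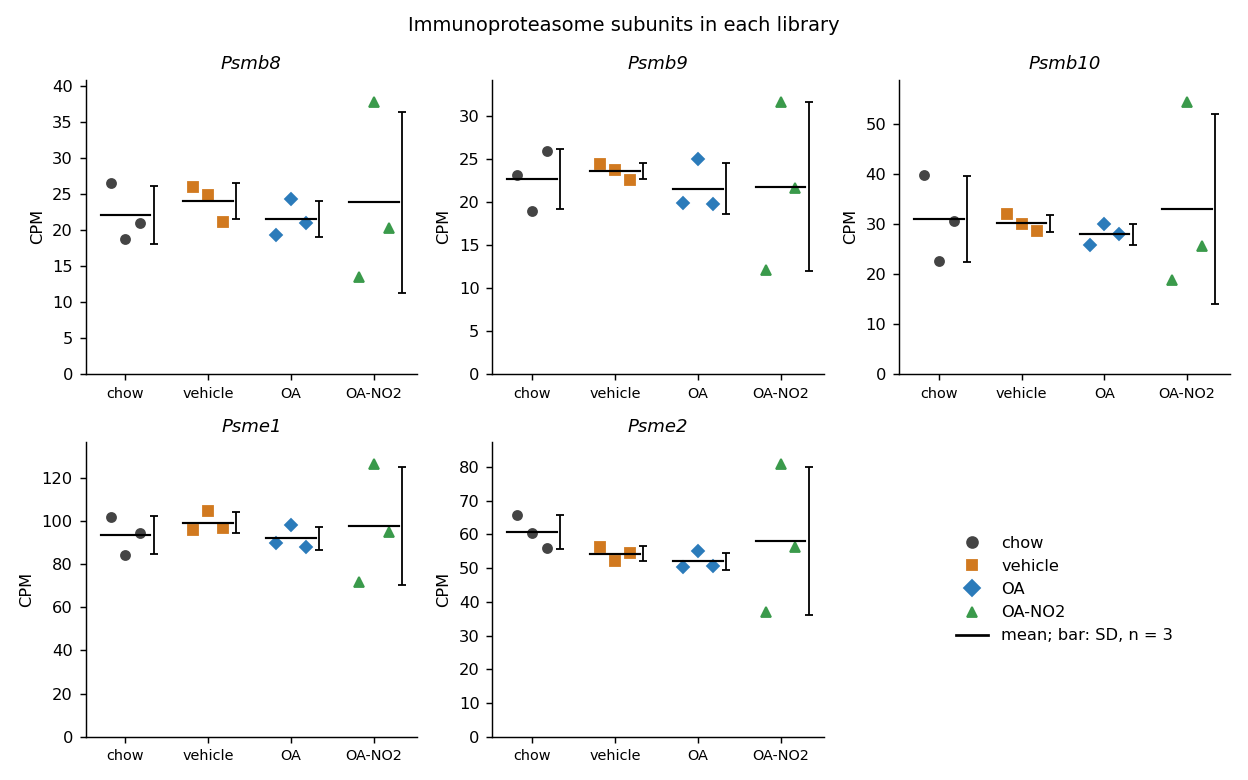
CPM on the TMM scale (vertical axes from 0) of the 5 immunoproteasome genes in each library by group, with horizontal lines for group means and bars for 1 SD (n = 3). The vehicle and OA libraries lie close together, whereas the OA-NO2 libraries hold both the lowest and the highest of the 12 values for each gene, such as 13.4 and 37.9 CPM for Psmb8.

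In edgeR's quasi-likelihood test, 0 of the 5 immunoproteasome genes was called between vehicle and chow, where 19.3% of all tested genes were called in either direction. Fold changes of vehicle over chow were 1.096 for Psmb8 (95% interval 0.716 to 1.68), 1.04 for Psmb9 (0.704 to 1.53) and 0.979 for Psmb10 (0.619 to 1.55). They were 1.06 for Psme1 (0.816 to 1.38) and 0.894 for Psme2 (0.653 to 1.22). Adjusted p-values of the 5 ran from 0.62 to 0.96, 0 of them had an unadjusted p under 0.05, and DESeq2 called none. The median log2 fold change was 0.06, against -0.01 for all tested genes. With library size alone the 5 had a median of 0.58 against 0.51 for all genes, Psme1 was called higher (background 39.8% in either direction), and the signs of Psmb10 and Psme2 turned positive. In whole liver, a change in the number of cells of a type and a change in RNA per cell cannot be told apart.

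Leukocyte transcripts stood beside these values in the same libraries. All 5 leukocyte markers (Ptprc, Laptm5, Cd52, Cd53 and Coro1a) were called higher with vehicle, with a median log2 fold change of 1.82, and their summed level was 26.2 to 60.9 CPM in chow and 129.8 to 151 CPM with vehicle. Cd52, a surface glycoprotein of lymphocytes and myeloid cells, had a fold change of 3.87 (95% interval 2.52 to 5.94, edgeR adjusted p = 0.0025). The summed level of the 5 immunoproteasome genes in the same libraries was 205 to 257 CPM in chow and 224 to 235 CPM with vehicle. Over all tested genes, 11.1% were called higher and 8.16% lower, and 33.7% had an unadjusted p under 0.05. Markers of macrophages were called higher in 4 of 6 genes, and in 3 to 5 with 1 library left out. Markers of dendritic cells and monocytes were called higher in 4 of 5, and in 3 to 4 with 1 library left out. Those of T and NK cells were called higher in 2 of 6 and those of B cells in 0 of 4 (1 with an unadjusted p under 0.05). Cd8a and Nkg7, listed here as markers of T and NK cells, had no counts in chow replicate 1. They reached at most 1.64 and 2.61 CPM in any library. Of the hepatocyte markers, 3 of 6 were called lower, while 2 of 4 stellate and 3 of 4 cholangiocyte markers were called higher. Of 4 endothelial markers, 0 were called in either direction (2 with an unadjusted p under 0.05). With 1 library left out, 1 endothelial marker was called lower without OA replicate 3 or chow replicate 1, and 1 higher without vehicle replicate 1. The T and NK count was 0 without OA replicate 2, without vehicle replicate 1 or 3 and without chow replicate 1 or 2 (0 to 3 over the 12 fits that left out 1 library). The cholangiocyte count was 0 without vehicle replicate 2 or 3 and without chow replicate 1 or 2 (0 to 4 over the 12), and the hepatocyte count was 2 without chow replicate 1 or any vehicle library and 6 without OA replicate 3. The part of cell makeup in the immunoproteasome levels was not tested.

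**Figure D2:**
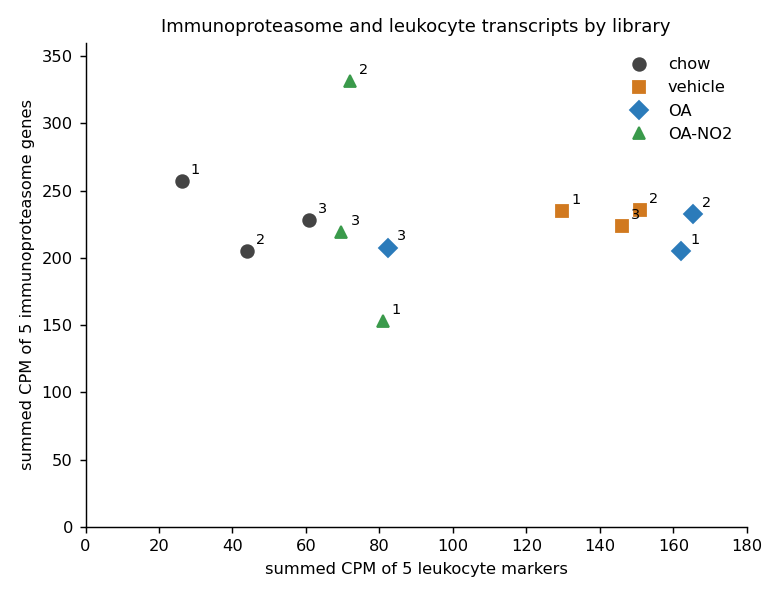
Summed CPM of the 5 immunoproteasome genes (vertical) against summed CPM of 5 leukocyte markers (horizontal) in the 12 libraries, with the replicate number beside each point. Vehicle libraries lie to the right of the chow libraries at a like height, and OA-NO2 replicates 1 and 2 lie far apart in height at similar leukocyte sums (80.9 and 71.9 CPM).

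Genes around the immunoproteasome were called about as often as genes at large between vehicle and chow. Of 14 genes that supply peptides to MHC class I, 2 rose and 1 fell on the TMM scale. Over all tested genes, 11.1% were called higher and 8.16% lower. The median log2 change of these MHC class I genes was 0.03 on the TMM scale and 0.55 with library size alone. For all tested genes it was -0.01 and 0.51. H2-Q4, a nonclassical class I heavy chain, had a log2 change of 0.73 ± 0.20 (SE, edgeR adjusted p = 0.022), and H2-D1, a classical one, 0.50 ± 0.16 (adjusted p = 0.0498). Erap1, the peptidase that trims peptides in the endoplasmic reticulum, had -0.61 ± 0.19 (adjusted p = 0.041). With 1 library left out, adjusted p reached 0.0836 for H2-Q4 (lost without vehicle replicate 2 and without chow replicate 1 or 2) and 0.161 for Erap1 (lost without any of the vehicle libraries, chow replicate 1 or 2 or OA replicate 1 or 2). For H2-D1 it reached 0.143, and that call held only without OA replicate 3 or OA-NO2 replicate 1. Tap1, whose gene lies next to Psmb9 and shares 212 exon bases with it on the opposite strand, had a log2 fold change of 0.16 (95% interval -0.42 to 0.74). Of 15 tested genes of interferon gamma signalling and its targets, 3 rose and 0 fell. These were Ciita, the activator of MHC class II genes, with a fold change of 7.18 (95% interval 3.30 to 15.6), Irf8, a myeloid transcription factor, with 2.82 (1.86 to 4.28), and the GTPase Gbp2 with 2.37 (1.66 to 3.39).

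Of the 49 proteasome genes, 2 were called between vehicle and chow, 1 higher and 1 lower, or 4.08% against 19.3% of all tested genes (11.1% higher and 8.16% lower). An unadjusted p under 0.05 was reached by 8 of the 49 against a background of 33.7%. The CPM values of the groups did not overlap in 17 of the 49, 3 higher and 14 lower, where 39.4% of all tested genes showed this. Log2 fold changes were below 0 in 37 genes and above 0 in 12 on the TMM scale, but above 0 in 48 of 49 with library size alone. Their median was -0.16 against -0.01 over all genes on the TMM scale and 0.36 against 0.51 with library size alone, a difference of -0.15 from all genes under both. With library size alone, 18 of the 49 were called higher and 0 lower, against a background of 38.1% higher. DESeq2 called 2 of the 49, Psmd8 and Psmd9, where it called 19.4% of the genes it tested.

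**Figure D3:**
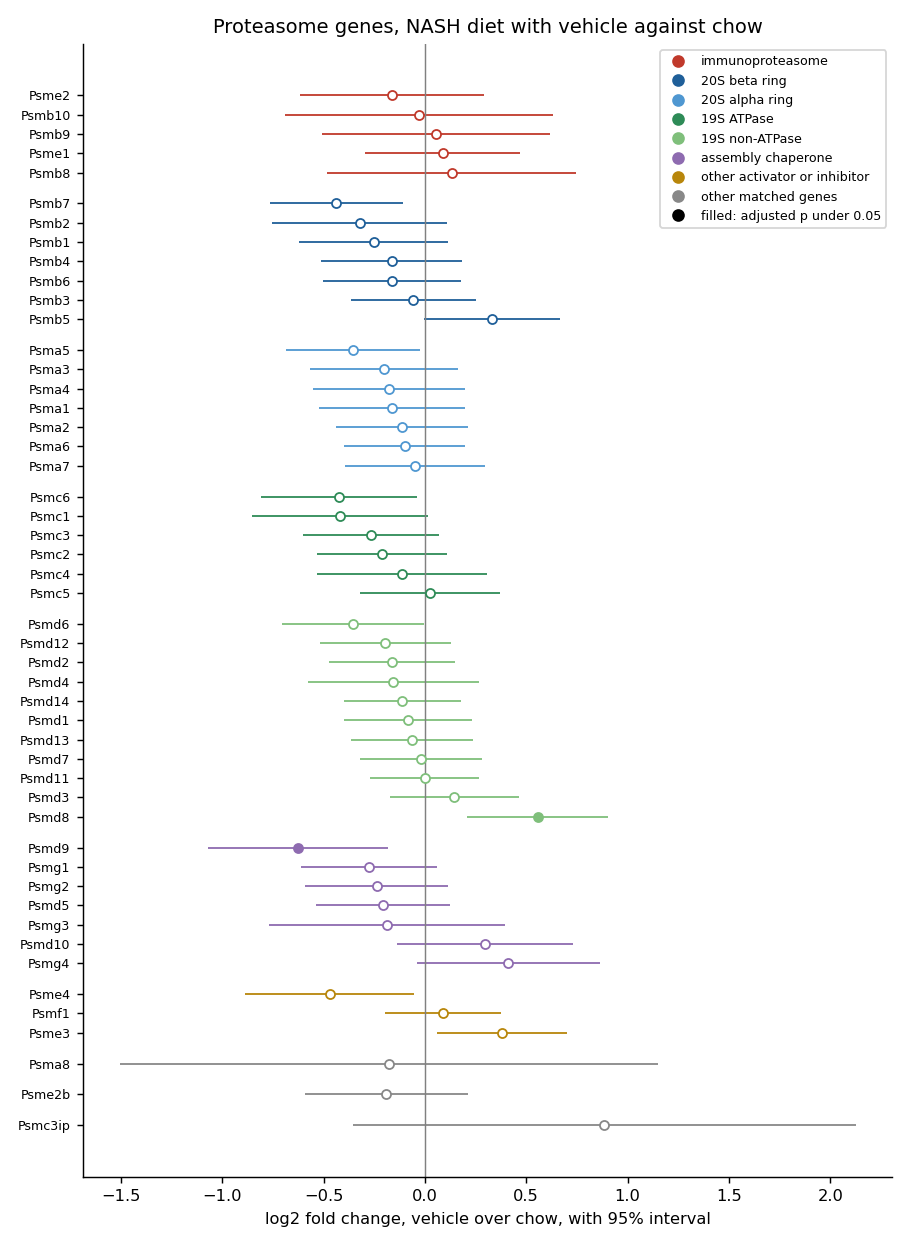
Log2 fold change of vehicle over chow (horizontal axis) with its 95% interval for the 49 genes, coloured by class, with filled points for an edgeR adjusted p under 0.05. Only Psmd8 (0.56) and Psmd9 (-0.63) are filled, and 37 of the 49 points lie below 0 on the TMM scale shown (1 of 49 with library size alone).

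Psmd8, a lid subunit of the cap, was higher with vehicle. It stood at 151, 138 and 157 CPM in chow, 201, 224 and 230.1 with vehicle, 244, 198 and 164 in the OA group, and 179.7, 173 and 205 in the OA-NO2 group. Every library on the NASH diet lay above every chow library. Means were 149 ± 10.1 CPM for chow and 219 ± 15.1 CPM for vehicle (SD, n = 3), and the fold change was 1.47 (95% interval 1.16 to 1.87, edgeR adjusted p = 0.030). The call held in 7 of 12 fits that each left out 1 library, and it was lost when any of the chow libraries, vehicle replicate 2 or vehicle replicate 3 was left out (adjusted p 0.0197 to 0.101). Fold changes against chow were 1.36 with OA (1.07 to 1.73, adjusted p = 0.102) and 1.25 with OA-NO2 (0.985 to 1.59, adjusted p = 0.294).

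Psmd9, the chaperone that helps assemble the ATPase ring, was lower with vehicle. It stood at 71.3, 45.3 and 66.1 CPM in chow, 43.5, 38.6 and 36.1 with vehicle, 33.9, 32.3 and 50.2 in the OA group, and 44.5, 60.8 and 47.7 in the OA-NO2 group. All vehicle libraries lay below all chow libraries, chow replicate 2 by a small margin, and OA replicate 3 lay within the chow range. Means were 60.9 ± 13.7 CPM for chow and 39.4 ± 3.80 CPM for vehicle (SD, n = 3), and the fold change was 0.648 (95% interval 0.477 to 0.882, edgeR adjusted p = 0.049). The call held in 4 of the 12 fits that left out 1 library, those without chow replicate 2, OA replicate 3, OA-NO2 replicate 1 or OA-NO2 replicate 2 (adjusted p 0.026 to 0.166 over the 12). It was lost with size factors by relative log expression (adjusted p = 0.053), without the filter (0.058) and with library size alone, where the log2 change was -0.10 (0.668). Exons of Psmd9 share 1849 bases with the antisense gene Gm26745 in the annotation, and whether the counting used strand is not given, so reads of the pair may be mixed.

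On the TMM scale, the subunits that carry the active sites went in different directions between vehicle and chow without passing the test. With library size alone, the log2 fold changes of all of them were above 0. Psmb5, the site of chymotrypsin-like activity, stood at 55.2, 41.8 and 43.5 CPM in chow, 66.4, 55.5 and 54.2 with vehicle, 43.1, 37.1 and 52.0 in the OA group, and 57.7, 59.7 and 56.2 in the OA-NO2 group. The OA libraries lay below all vehicle and all OA-NO2 libraries and overlapped with chow. Vehicle over chow gave a log2 fold change of 0.33 (95% interval -0.0048 to 0.66, edgeR adjusted p = 0.154), and the gene was called with library size alone (0.86).

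Psmb6, the site of caspase-like activity, stood at 125, 108 and 119 CPM in chow, 107, 108 and 99.1 with vehicle, 99.7, 95.8 and 106 in the OA group, and 90.8, 142 and 114 in the OA-NO2 group. Chow and vehicle met at 108 CPM, and OA-NO2 replicates again held the lowest and the highest value. Its log2 fold change of vehicle over chow was -0.16 (95% interval -0.50 to 0.18) on the TMM scale and 0.36 with library size alone. Psmb7, the site of trypsin-like activity, stood at 69.2, 82.1 and 66.8 CPM in chow, 54.2, 49.2 and 57.7 with vehicle, 53.3, 60.3 and 67.3 in the OA group, and 51.5, 62.4 and 71.2 in the OA-NO2 group. All vehicle values lay below all chow values, with a log2 fold change of -0.44 (95% interval -0.76 to -0.11, edgeR adjusted p = 0.060) that was 0.08 with library size alone. Without OA-NO2 replicate 1 the adjusted p was 0.038. Psmb7 shares 405 exon bases with Nek6 on the opposite strand.

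The other activators also differed among themselves on the TMM scale. Psme3 stood at 33.2, 41.0 and 33.9 CPM in chow, 48.2, 39.0 and 54.0 with vehicle, 45.4, 45.0 and 42.7 in the OA group, and 55.3, 44.4 and 48.9 in the OA-NO2 group. Apart from vehicle replicate 2, every NASH library lay above every chow library, and the log2 fold change of vehicle over chow was 0.38 (95% interval 0.06 to 0.70, edgeR adjusted p = 0.088). Psme4, which encodes the activator PA200, stood at 140.1, 212 and 136 CPM in chow, 128, 103 and 121 with vehicle, 122, 129 and 153 in the OA group, and 124, 116 and 158 in the OA-NO2 group. Vehicle lay below chow in all libraries, with a log2 fold change of -0.47 (95% interval -0.89 to -0.05, edgeR adjusted p = 0.105) that was 0.04 with library size alone. Psmf1, the gene of the inhibitor PI31, ranged from 25.3 to 32.6 CPM over the 12 libraries.

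**Figure D4:**
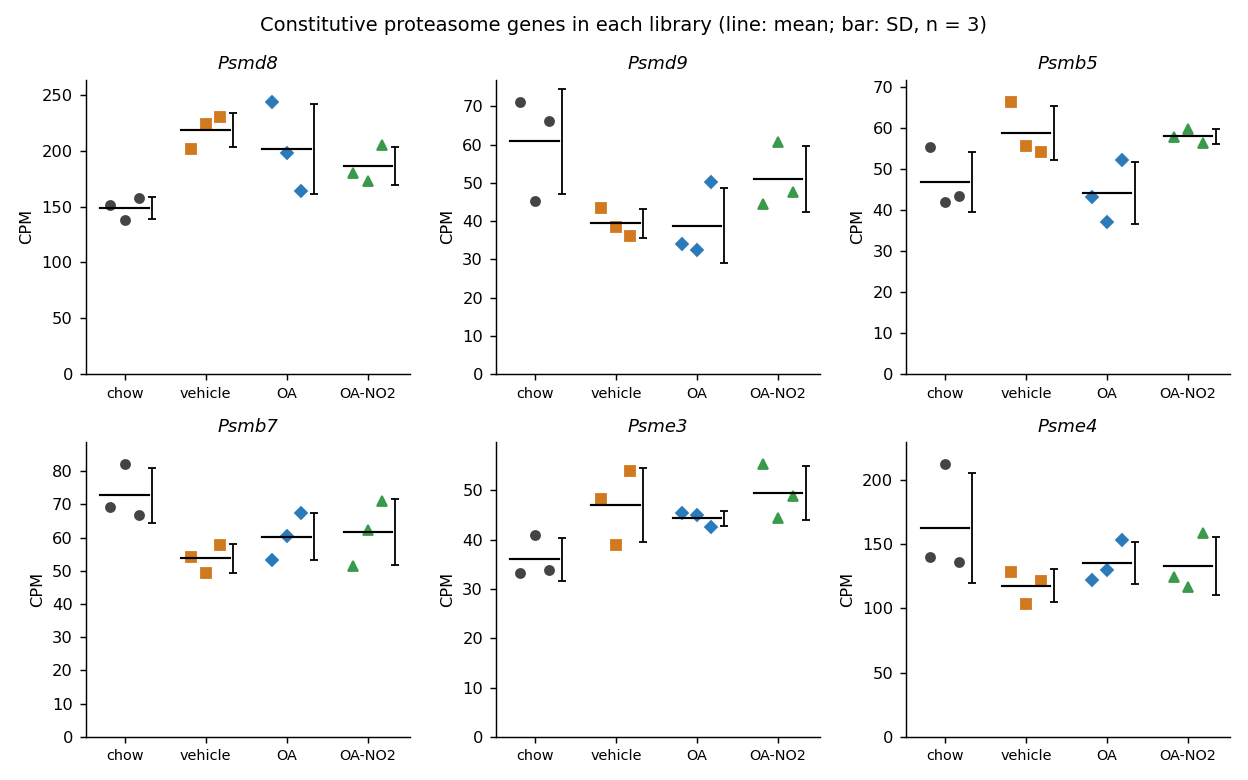
CPM on the TMM scale (vertical axes from 0) of Psmd8, Psmd9, Psmb5, Psmb7, Psme3 and Psme4 in each library, with lines for group means and bars for 1 SD (n = 3). Psmd8 lies higher in all NASH libraries than in chow, Psmd9 lies lower with vehicle than in chow, and Psmb5 lies lower with OA than with vehicle or OA-NO2.

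No other gene of the remaining classes was called between vehicle and chow. On the TMM scale the ATPases summed to 720 to 749 CPM in chow and 567 to 639 CPM with vehicle. The beta ring summed to 714 to 780 CPM in chow and 632 to 677 CPM with vehicle. Sums of the alpha ring and of the non-ATPase cap subunits overlapped between chow and vehicle. All 7 alpha ring genes had log2 fold changes below 0 on the TMM scale and above 0 with library size alone, from -0.36 (Psma5) to -0.05 (Psma7), and 0 were called. Of the 6 ATPases, which unfold substrates, 5 were below 0 on the TMM scale and none with library size alone, with Psmc6 and Psmc1 both at -0.42 and 0 called. Apart from Psmd8, the 10 non-ATPase cap subunits had log2 fold changes from -0.36 (Psmd6) to 0.14 (Psmd3) on the TMM scale, and all 10 were above 0 with library size alone. Assembly chaperones other than Psmd9 ran from -0.28 (Psmg1) to 0.41 (Psmg4). Psme2b, at 12.1 to 22.7 CPM, had -0.19, and its reads may be shared with Psme2.

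Genes that act with the proteasome but lie outside the symbol pattern were tested in the same fit. Of 11 further subunits and cofactors, 1 was called between vehicle and chow, where 19.3% of all tested genes were called and 8.16% were called lower. This was Ecpas, a scaffold that tethers core and cap, with a log2 change of -0.45 ± 0.14 (SE, edgeR adjusted p = 0.041) on the TMM scale and 0.06 with library size alone. Its call held in 5 of 12 fits that left out 1 library and was lost without any of the vehicle libraries, chow replicate 1 or 2 or OA replicate 1 or 2 (adjusted p up to 0.156). Adrm1, a ubiquitin receptor of the cap, had 0.44 ± 0.16 (adjusted p = 0.079). Of 10 genes for the transcription control of proteasome genes, 2 were called, both lower on the TMM scale. Over all tested genes 8.16% were called lower and 19.3% in either direction. The median log2 change of the 10 was -0.12 on the TMM scale and 0.40 with library size alone. For all tested genes it was -0.01 and 0.51. The values of single genes that follow are on the TMM scale. Ddi2, the protease that activates the proteasome transcription factor NFE2L1, stood at 175, 174 and 172 CPM in chow and 123, 88.8 and 91.8 with vehicle, a log2 change of -0.78 ± 0.19 (adjusted p = 0.013). Bach1, a repressor at antioxidant response elements, had -0.64 ± 0.16 (adjusted p = 0.016), and Nfe2l1 itself -0.13 (95% interval -0.47 to 0.21). The Ddi2 call was lost without vehicle replicate 2 or 3 (adjusted p up to 0.0595) and the Bach1 call without vehicle replicate 3 and without chow replicate 2 or 3 (up to 0.063). Of 16 genes of ubiquitin supply and delivery, 0 were called by edgeR, 1 with an unadjusted p under 0.05. Ubqln2, a shuttle factor, had the lowest p of these, with 0.40 ± 0.17 (adjusted p = 0.114).

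OA and vehicle were compared to see what the unmodified fatty acid did on the NASH diet. None of the 49 proteasome genes was called by edgeR, 1 had an unadjusted p under 0.05, and DESeq2 called none, where 0% of all tested genes were called by either tool and 3.90% had an unadjusted p under 0.05. The gene with the unadjusted p was Psmb5, with a log2 change of -0.41 (95% interval -0.75 to -0.08, edgeR adjusted p = 0.9746). Groups did not overlap in 5 of the 49, against 13.1% of all genes. Log2 fold changes of the immunoproteasome genes ran from -0.16 (Psmb8) to -0.06 (Psme2), with 95% intervals that together span -0.76 to 0.55.

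OA-NO2 and vehicle were compared likewise for the nitrated fatty acid. None of the 49 was called by edgeR and none by DESeq2, where these called 0.0207% and 2.01% of all genes, and 1 of the 49 had an unadjusted p under 0.05 against 15.8% of all genes. This was Psmd11, a lid subunit, with a log2 change of 0.30 (edgeR adjusted p = 0.265). Groups did not overlap in 6 of the 49, against 19.7% of all genes, and Psmd9 was among them, with 0.37 (95% interval -0.07 to 0.81, adjusted p = 0.396). Fold changes of the immunoproteasome genes were 0.995 for Psmb8 (95% interval 0.654 to 1.51), 0.924 for Psmb9 (0.628 to 1.36), 1.09 for Psmb10 (0.696 to 1.72), 0.986 for Psme1 (0.757 to 1.28) and 1.07 for Psme2 (0.782 to 1.46). Of these, Psmb10 and Psme2 changed sign with library size alone. Leukocyte markers had log2 fold changes below 0 in 5 of 5 genes, with a median of -0.99, and 0 were called by edgeR although all 5 had an unadjusted p under 0.05. Ddi2 had 0.59 (95% interval 0.19 to 0.98, adjusted p = 0.180).

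OA-NO2 and OA differ by the nitro group and were infused at the same rate. None of the 49 was called by edgeR or DESeq2, where these called 0.00691% and 0.404% of all genes, and 4 of the 49 had an unadjusted p under 0.05 against 12.0% of all genes. These were Psmb5 with a log2 change of 0.39 (95% interval 0.06 to 0.73, edgeR adjusted p = 0.363), Psmd3 with 0.39, Psmd4 with 0.44 and Psmd11 with 0.35. Groups did not overlap in 4 of the 49, all higher with OA-NO2, against 14.3% of all genes. For the 47 genes other than the scarce Psma8 and Psmc3ip, the 95% intervals of the difference lay between -0.74 (Psmd10) and 0.90 (Psmg3) on the log2 scale, these being the lowest and the highest bound of any of the genes. For the immunoproteasome genes the differences ran from 0.01 (Psmb9) to 0.24 (Psmb10) and the intervals lay between -0.54 and 0.89, and with library size alone Psmb9 and Psme1 were below 0.

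Against chow, 0 of the 49 proteasome genes were called by edgeR with OA, where 8.56% of all genes were called (6.33% higher and 2.23% lower), and 0 with OA-NO2, where 0.684% were (0.435% higher and 0.249% lower). An unadjusted p under 0.05 was reached by 3 genes with OA (background 25.7%) and 4 with OA-NO2 (background 18.8%), and groups did not overlap in 15 genes with OA (background 30.9%) and 5 with OA-NO2 (background 21.5%). DESeq2 called Psmd8 and Psmd9 between OA and chow (background 11.7%) and 0 of the 49 between OA-NO2 and chow (background 5.28%). In edgeR both genes were called between OA and chow without OA replicate 3, and Psmd9 also without chow replicate 2. With library size alone, 5 of the 49 were called with OA (background 26.1%, 25.2% higher) and 4 with OA-NO2 (background 7.79%, 7.60% higher). OA replicate 3 lies nearer to chow than the other OA libraries for Psmd8 (164 CPM) and Psmd9 (50.2 CPM). Its leukocyte sum was 82.4 CPM against 162 and 165 CPM in OA replicates 1 and 2. These comparisons share the chow libraries with that of vehicle. Across the 4 groups, 0 of 49 were called by edgeR where 8.67% of all genes were, 6 had an unadjusted p under 0.05 (background 27.7%), DESeq2 called 1, Psmd8 (background 16.0%), and 8 were called with library size alone (background 23.3%).

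Ratios of counts within a library do not depend on the scaling between libraries, so immunoproteasome genes were set over their constitutive partners. Psmb8 over Psmb5 was 0.480, 0.447 and 0.482 in chow, 0.391, 0.449 and 0.391 with vehicle, 0.450, 0.655 and 0.404 in the OA group, and 0.233, 0.634 and 0.362 in the OA-NO2 group. Psmb9 over Psmb6 was 0.185, 0.176 and 0.217 in chow, 0.227, 0.220 and 0.228 with vehicle, 0.199, 0.261 and 0.187 in the OA group, and 0.133, 0.223 and 0.189 in the OA-NO2 group. The first of these ratios overlapped between chow and vehicle, and the second was higher in every vehicle library than in every chow library.

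Psmb10 over Psmb7 was 0.577, 0.277 and 0.459 in chow, 0.590, 0.610 and 0.496 with vehicle, 0.485, 0.499 and 0.418 in the OA group, and 0.366, 0.875 and 0.362 in the OA-NO2 group. The sum of Psme1 and Psme2 over Psme3 was 5.04, 3.53 and 4.44 in chow, 3.16, 4.02 and 2.80 with vehicle, 3.09, 3.41 and 3.25 in the OA group, and 1.97, 4.66 and 3.10 in the OA-NO2 group. All OA values of this ratio lay below all chow values, and the OA-NO2 libraries spanned nearly the whole range.

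The 4 ratios were tested across the groups with an exact permutation test over all 369600 assignments of the libraries, two-sided by construction. The exact p was 0.672 for Psmb8 over Psmb5, 0.381 for Psmb9 over Psmb6, 0.736 for Psmb10 over Psmb7 and 0.432 for Psme1 and Psme2 over Psme3, each 0.736 after adjustment over the 4. Between 2 groups of 3 the smallest exact p is 0.1, reached by Psmb9 over Psmb6 in vehicle against chow (log2 difference 0.23) and by Psme1 and Psme2 over Psme3 in OA against chow (-0.40). Without OA-NO2 replicate 2 the unadjusted exact p across the groups was 0.0157 for Psmb8 over Psmb5 and 0.0464 for Psme1 and Psme2 over Psme3, or 0.0629 and 0.0929 after adjustment over the 4. Over all 12 tests that left out 1 library, the unadjusted exact p of these ratios reached 0.812 and 0.740.

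**Figure D5:**
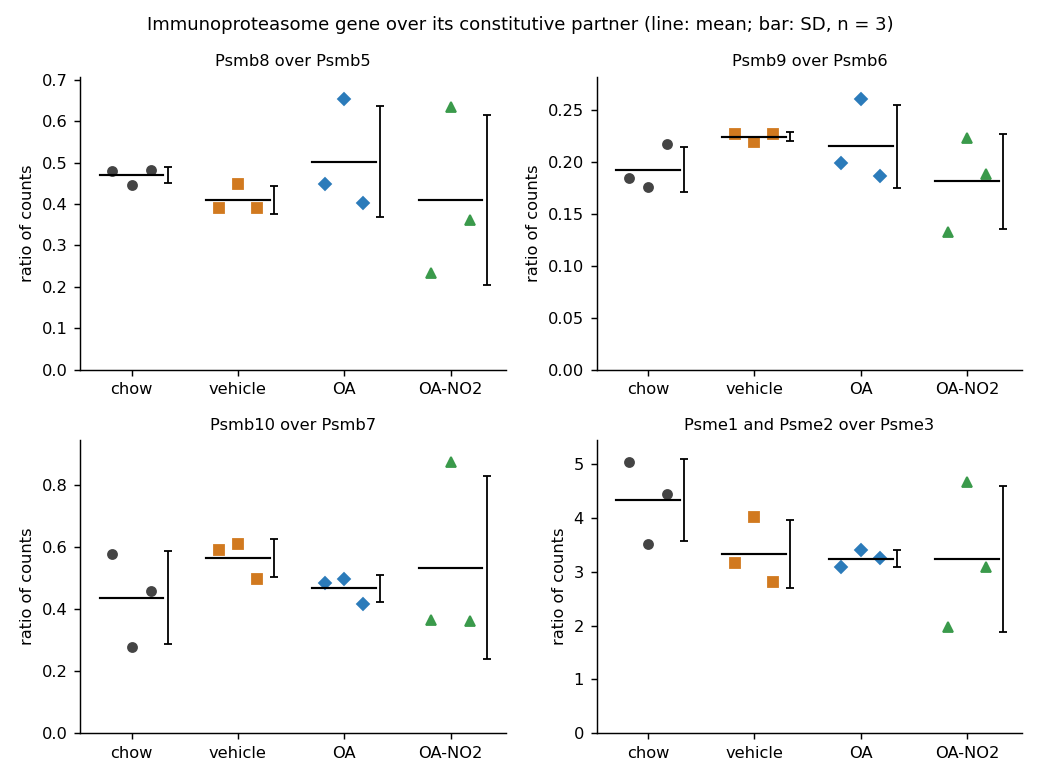
Ratio of counts of immunoproteasome genes over their constitutive partners (vertical axes from 0) in each library by group, with lines for group means and bars for 1 SD (n = 3). The OA-NO2 libraries are widely spread, from 0.233 to 0.634 for Psmb8 over Psmb5.

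The OA-NO2 group stood out by its spread, a pattern that was chosen for description after its values were seen. Each of the 5 immunoproteasome genes was lowest of the 12 libraries in OA-NO2 replicate 1 and highest in OA-NO2 replicate 2. The CPM of replicate 2 over replicate 1 was 2.82-fold for Psmb8, 2.63-fold for Psmb9, 2.90-fold for Psmb10, 1.76-fold for Psme1 and 2.19-fold for Psme2. The median ratio of the highest to the lowest library for the 5 genes was 2.63 with OA-NO2, 1.37 in chow, 1.09 with vehicle and 1.16 with OA, and over all tested genes it was 1.48, 1.41, 1.34 and 1.33.

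The same opposite extremes occurred in 11 of the 49 proteasome genes and in 1.43% of all tested genes. Beside the immunoproteasome they were Psma6, Psma7, Psmb1, Psmb6, Psme2b and Psmg1. OA-NO2 replicate 2 was the highest library for 22 of the 49 and the lowest for 0, where it was highest for 9.39% and lowest for 8.05% of all tested genes. Replicate 1 was the lowest for 19 and the highest for 3, where it was lowest for 12.9% and highest for 14.6% of all tested genes. In CPM of plain totals the opposite extremes remained for Psmb8, Psmb9 and Psme2 among the 5, for 5 of the 49 and for 0.622% of all genes. Psmb5 did not share the pattern, at 57.7 and 59.7 CPM in the 2 libraries.

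Transcripts outside the proteasome differed between these libraries too. Pomp, the chaperone that assembles the beta ring, stood at 101 CPM in replicate 1 and 188 in replicate 2. Igtp, an interferon-induced GTPase, stood at 30.2 and 88.5 CPM, while Gbp2 stood at 9.21 and 11.1 and Irf1 at 21.1 and 20.4 CPM. Summed marker levels in replicates 1 and 2 went both ways. They were 80.9 and 71.9 CPM for the 5 leukocyte markers, 22.4 and 9.84 for dendritic cells and monocytes, 443 and 542 for macrophages, 3.91 and 5.39 for T and NK cells, and 2.26 and 4.61 for B cells. MHC class I peptide supply summed to 4926 and 7084 CPM, the lowest and the highest of the 12 libraries. Sums were 650 and 933 for interferon gamma genes, 619 and 748 for further subunits and cofactors, and 78277 and 96292 for hepatocytes. They were lower in replicate 2 for ubiquitin supply (2083 and 2060) and transcription control (830 and 759). The same held for stellate cells (102 and 75.1), endothelium (99.1 and 88.0) and cholangiocytes (10.7 and 8.03). The part of any of these in the spread was not tested.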

How the data were processed

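Liver RNA from 12 mice was sequenced in pairs from KAPA mRNA HyperPrep libraries, per the labels' protocols. The submitters' processing notes name Trimmomatic 0.35, HISAT2 2.1.0, SAMtools 1.2, HTSeq and the build GRCm38. Annotation release, strand setting and handling of multiply mapped reads were not given in the sources used here. Raw counts per gene, deposited by the authors, were used as they stand. Identifiers without a symbol (69) held 0.0143% of counts.

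The proteasome genes and all gene lists were chosen with earlier results of these data known. Named are the immunoproteasome genes, their partners, Psme3, Psme4, called members and, per list, genes among the 3 lowest p between vehicle and chow. Others (such as Tap1, Nfe2l1, Pomp, Igtp) were chosen after their values were seen.

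The 14469 genes passing edgeR's filter (minimum count 10, total 15) entered 1 quasi-likelihood fit of all 12 libraries with TMM scaling (edgeR 4.0.16, R 4.3.3), tested on simulated counts, with Benjamini-Hochberg adjustment and a threshold of 0.05. Replicates are separate mice. Alternatives were library size alone, size factors by relative log expression, no filter, only the 2 groups compared, each library left out, ratios of group sums and DESeq2 1.42.0. Transcript lengths and overlaps come from GENCODE M21, promoters from RefSeq (GRCm38.p6).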

Additional observations from a re-analysis of the deposited data

How the results depend on the processing

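No paired analysis was made, because each library comes from a separate mouse and the labels pair none of them. Between vehicle and chow, 2 proteasome genes were called, against 18 with library size alone, 1 with relative log expression factors (Psmd8), 1 without the filter (Psmd8) and 0 to 3 with 1 library left out. Between OA and chow it was 0, against 5 with library size alone, 2 with DESeq2 and 0 to 2 with 1 library left out (2 without OA replicate 3). Between OA-NO2 and chow it was 0, against 4 with library size alone, and across the 4 groups 0, against 8 with library size alone, 1 with DESeq2 and 0 to 1 with 1 library left out (1 without OA replicate 3). The log2 difference of vehicle from chow, with its range when 1 library was left out, was -0.20 (-0.26 to -0.16) for Psmb8 over Psmb5, 0.23 (0.17 to 0.32) for Psmb9 over Psmb6, 0.43 (0.13 without chow replicate 2 to 0.66 without chow replicate 1) for Psmb10 over Psmb7 and -0.38 (-0.53 to -0.27) for Psme1 and Psme2 over Psme3. The unadjusted exact p across the groups ran from 0.0157 to 0.812, 0.125 to 0.524, 0.21 to 0.877 and 0.0464 to 0.740 in the same order.

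Library size alone turned the sign of some genes that were not called on the TMM scale. The log2 changes became, for vehicle over chow, Psmb10 0.50, Psme2 0.36, Psmb6 0.36, Psmb7 0.080 and Psme4 0.043. For OA over chow they became Psmb8 0.41, Psmb9 0.36, Psmb10 0.30, Psme1 0.41, Psme2 0.21, Psmb5 0.34, Psmb6 0.21, Psmb7 0.15 and Psme4 0.14. For OA-NO2 over chow they became Psmb9 0.24, Psme2 0.24, Psmb6 0.29, Psmb7 0.068, Psme4 0.015 and Psmd9 0.071. For OA-NO2 over vehicle they became Psmb10 -0.090, Psme2 -0.12, Psmb6 -0.071, Psmb7 -0.012, Psme3 -0.11 and Psme4 -0.028, and for OA-NO2 over OA Psmb9 -0.13, Psme1 -0.038 and Psmb7 -0.079.

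Leaving out 1 library let other uncalled changes cross 0. With vehicle over chow the ranges were -0.062 to 0.17 (Psmb9) and -0.22 to 0.18 (Psmb10), and with OA over vehicle -0.20 to 0.028 (Psme3) and -0.27 to 0.095 (Psmd9). With OA-NO2 over vehicle they were -0.51 to 0.28 (Psmb8), -0.49 to 0.18 (Psmb9), -0.44 to 0.41 (Psmb10), -0.25 to 0.16 (Psme1), -0.22 to 0.34 (Psme2), -0.076 to 0.076 (Psmb5), -0.033 to 0.29 (Psmb6) and -0.047 to 0.18 (Psme3). With OA-NO2 over OA they were -0.36 to 0.43 (Psmb8), -0.36 to 0.30 (Psmb9), -0.33 to 0.52 (Psmb10), -0.14 to 0.27 (Psme1), -0.16 to 0.40 (Psme2), -0.086 to 0.15 (Psmb7), -0.17 to 0.091 (Psme4) and -0.24 to 0.038 (Psmd8). With OA over chow they were -0.13 to 0.12 (Psmb8), -0.19 to 0.044 (Psmb9), -0.32 to 0.069 (Psmb10), -0.091 to 0.041 (Psme1) and -0.26 to 0.046 (Psmb5). With OA-NO2 over chow they were -0.38 to 0.41 (Psmb8), -0.44 to 0.23 (Psmb9), -0.47 to 0.38 (Psmb10), -0.16 to 0.25 (Psme1), -0.38 to 0.18 (Psme2) and -0.20 to 0.13 (Psmb6). The cause of these changes was not tested.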
